A study of Mus musculus with 8 samples.

Results

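The chemokine receptor genes examined here were Ccr1, Ccr2, Ccr3, Ccrl2, Cx3cr1 and Cxcr4, receptors through which macrophages and the monocytes they come from sense chemokines. Their counts were found by matching the Ensembl identifiers of the table to these symbols in GENCODE M21, which gave 6 genes of the 49315 in the table, and all 6 passed the filter on low counts and were among the 13051 genes tested. The study used bone marrow-derived macrophages (BMDMs), grown from the marrow of C57BL/6 mice in medium with M-CSF (macrophage colony-stimulating factor, 10 ng/ml), and asked how loss of the long non-coding RNA MAARS changes their transcriptome. Both groups were transfected with 25 nM gapmeR, an antisense oligonucleotide whose target RNA is cut by RNase H, so that the 4 control libraries (control gapmeR replicates 2, 5, 6 and 7) carried a negative control gapmeR and the 4 others (MAARS gapmeR replicates 9, 11, 13 and 15) a gapmeR against MAARS. RNA-Seq after ribodepletion gave one count per gene and library. The cultures were not sorted, and no library of untransfected cells was analysed here. The age of the mice was not given in the sources used here, nor was it stated whether the libraries came from separate animals or cultures, so the p-values measure the spread between these samples, which may be technical.

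Chemokine receptors are 7-transmembrane proteins that couple to Gi proteins and steer cells along gradients of small secreted chemokines. The CC receptors bind chemokines with adjacent cysteines, Cxcr4 binds the CXC chemokine Cxcl12, Cx3cr1 binds the membrane-tethered chemokine fractalkine, and Ccrl2 is an atypical receptor that binds the chemoattractant chemerin without known signalling of its own and presents it to the chemerin receptor Cmklr1 on neighbouring cells. In the monocyte and macrophage lineage, Cxcr4 is known for holding cells in the bone marrow, Ccr2 for the release of monocytes into blood and their entry into tissue, and Cx3cr1 for the survival and patrolling of resident cells.

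Total counts per library lay between 19287279 and 20567123 with control gapmeR and between 20839671 and 24541205 with MAARS gapmeR, so that every MAARS gapmeR library was the deeper one. MAARS itself, listed as Gm14461 (ENSMUSG00000054510), was measured at 12.2, 15.1, 13 and 12.2 CPM (counts relative to the library's total, after TMM scaling in edgeR) in control replicates 2, 5, 6 and 7 and at 7.71, 6.41, 7.31 and 5.85 CPM in MAARS gapmeR replicates 9, 11, 13 and 15. Its log2 fold change was -0.95 (standard error 0.112, edgeR adjusted p = 5.8e-05), so by these counts the knockdown was partial, with 52.0% of the control level left. The paper reports a stronger knockdown by gapmeRs in BMDMs, and the reason for the difference was not tested. The 8 markers of macrophages were all measured, from Itgam at 108 to 138 CPM to Lyz2 at 8050 to 14700 CPM, and their sum was 14200 to 17400 CPM in control and 17200 to 20400 CPM in MAARS gapmeR libraries, with 4 markers higher and 3 lower after MAARS knockdown. Most of this sum came from Lyz2, at 9400 ± 1240 and 13200 ± 1170 CPM (SD, n = 4 each). The largest change among these markers was the fall of Fcgr1 to 23.5% of its control level. Transcripts that mark other cell types were present as well. The summed neutrophil markers lay at 102 to 300 CPM in control and 106 to 168 CPM in MAARS gapmeR libraries, and the summed stromal markers at 458 to 1040 and 719 to 1230 CPM. The sums of the dendritic cell (0.512 to 1.68 and 1.34 to 1.66 CPM) and B cell lists (1.89 to 5.06 and 2.65 to 4.12 CPM) were low, and that of the T cell list (207 to 280 and 253 to 303 CPM) came from Cd28 alone, with 0 to 5 counts per library for each of the others and Cd3g at 0.

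Of the 6 receptor genes, Ccrl2 and Ccr2 fell and Cxcr4 rose after MAARS knockdown, while Ccr1, Ccr3 and Cx3cr1 did not pass the test. Ccrl2 had 35.7%, Ccr2 71.1% and Cxcr4 141% of its control level. Genes were called at an adjusted p under 0.05, taking the quasi-likelihood p-values of edgeR and adjusting them by the Benjamini-Hochberg method over all 13051 genes. At that threshold 45.4% of all genes tested were called (21.3% higher and 24.0% lower), against 3 of the 6 receptor genes (1 higher and 2 lower), so the share of receptor genes that was called was near the background. In the same 3 genes the 4 libraries of 1 group did not overlap the 4 of the other (two-sided exact permutation test, p = 0.0286 for each, the smallest p that 4 against 4 libraries can give), which was true of 42.1% of all genes tested. The plots of CPM by library and of fold changes show these values.

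**Figure D1:**
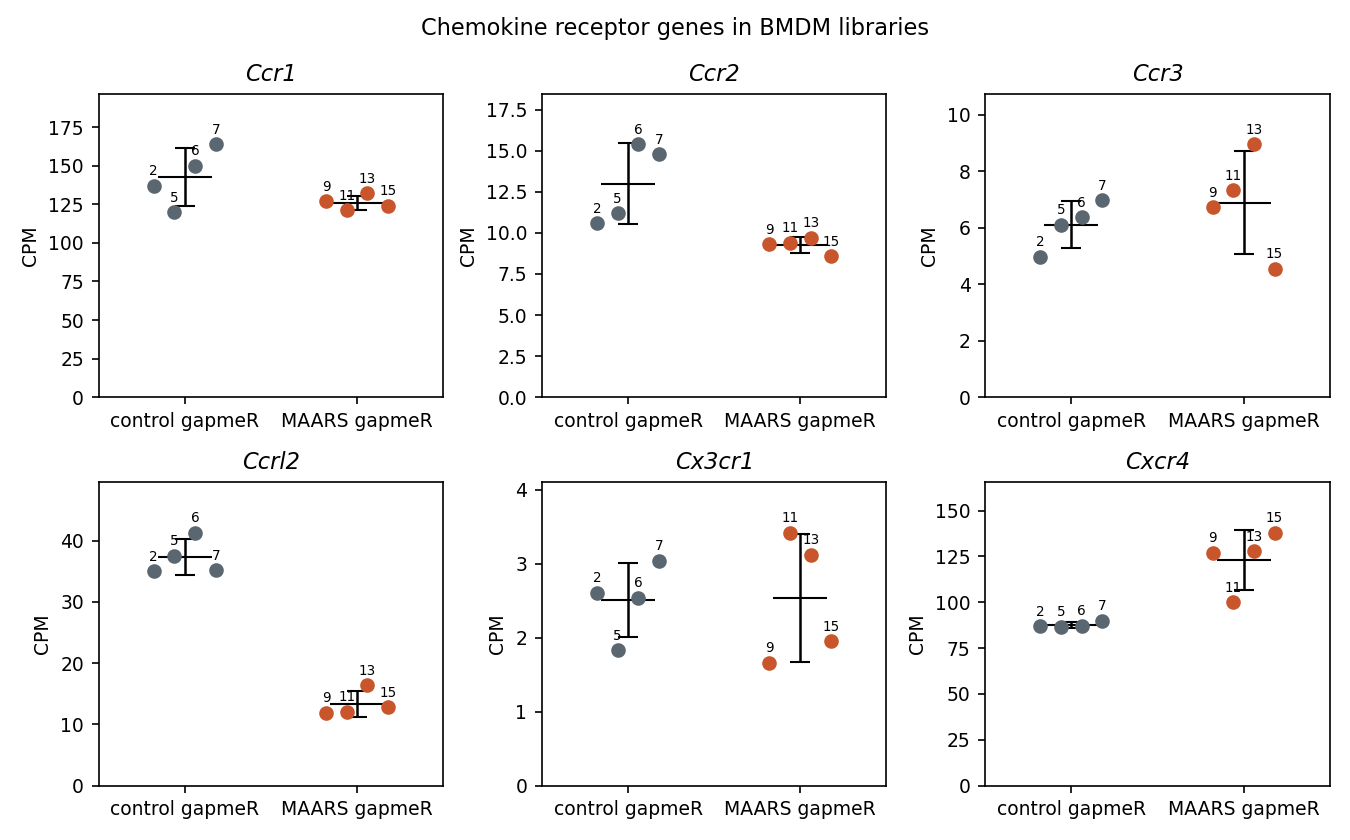
CPM of each receptor gene (vertical axes, each from 0) in the control gapmeR and MAARS gapmeR libraries, with 1 point per library labelled by its replicate number, the group mean as a long line and ± 1 SD as the bar (n = 4 each). The groups lie apart for Ccrl2, Ccr2 and Cxcr4 and share part of their range for Ccr1, Ccr3 and Cx3cr1.

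**Figure D2:**
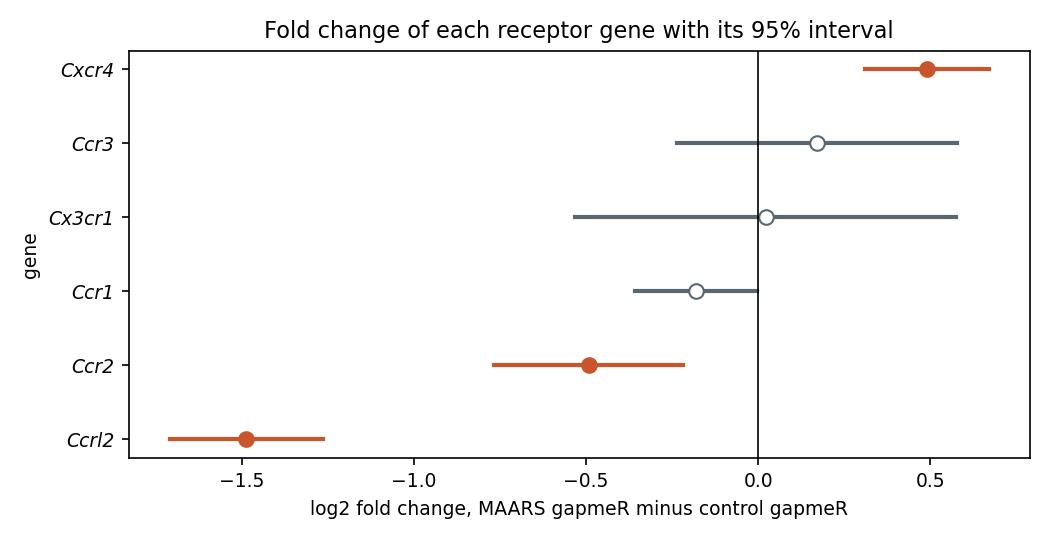
Log2 fold change of each receptor gene, MAARS gapmeR minus control gapmeR, with the 95% confidence interval of edgeR's fit as a line. Filled points mark an adjusted p under 0.05, from Ccrl2 at -1.49 through Ccr2 at -0.49 to Cxcr4 at 0.49, and the open points of Ccr1, Cx3cr1 and Ccr3 mark the genes that missed it.

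Of the receptor genes, 5 lie on chromosome 9 of the mouse genome (GRCm38, positions of GENCODE M21). Ccr1 (ENSMUSG00000025804, chr9:123962124-123968692, minus strand), Ccr3 (ENSMUSG00000035448, chr9:124021972-124031689, plus strand) and Ccr2 (ENSMUSG00000049103, chr9:124101950-124113557, plus strand) lie within 151 kb of each other in the chemokine receptor cluster of chromosome 9. Cx3cr1 (ENSMUSG00000052336, chr9:119901616-120069879, minus strand) and Ccrl2 (ENSMUSG00000043953, chr9:111054486-111057519, minus strand) lie on the same chromosome, Cx3cr1 3.89 Mb from Ccr1 and Ccrl2 a further 8.84 Mb away, while Cxcr4 (ENSMUSG00000045382, chr1:128588199-128592293, minus strand) lies on chromosome 1. Of the 3 clustered genes only Ccr2 passed the threshold. Ccr1 and Ccr3, with 53.3 kb between them, had log2 fold changes of -0.18 and 0.17 that missed it. The 95% interval of Ccr3 (-0.24 to 0.58) held changes in either direction. Whether the 3 genes share a direction cannot be told from these values.

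The start-site regions of the 3 genes that passed the test are printed so that the gene that fell most, the gene that rose and the clustered gene that fell can be compared. Each runs 5′ to 3′ from 250 bases before to 50 after a RefSeq transcript start on GRCm38.p6, and capitals mark matches to the NF-kB motif.
Ccrl2 (chr9:111057469-111057768, minus strand): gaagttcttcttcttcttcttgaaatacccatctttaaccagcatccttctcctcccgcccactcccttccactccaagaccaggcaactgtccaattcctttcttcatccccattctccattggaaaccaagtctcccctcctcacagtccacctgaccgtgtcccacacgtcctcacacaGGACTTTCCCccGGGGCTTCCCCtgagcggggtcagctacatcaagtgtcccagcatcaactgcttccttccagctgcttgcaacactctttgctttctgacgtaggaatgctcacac
Cxcr4 (chr1:128592250-128592549, minus strand): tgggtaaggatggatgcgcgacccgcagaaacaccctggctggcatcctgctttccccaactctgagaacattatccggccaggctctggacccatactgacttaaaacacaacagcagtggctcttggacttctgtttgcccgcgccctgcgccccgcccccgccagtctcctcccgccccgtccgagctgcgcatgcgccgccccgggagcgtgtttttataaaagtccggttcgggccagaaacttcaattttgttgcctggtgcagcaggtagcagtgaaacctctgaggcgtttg
Ccr2 (chr9:124101933-124102232, plus strand): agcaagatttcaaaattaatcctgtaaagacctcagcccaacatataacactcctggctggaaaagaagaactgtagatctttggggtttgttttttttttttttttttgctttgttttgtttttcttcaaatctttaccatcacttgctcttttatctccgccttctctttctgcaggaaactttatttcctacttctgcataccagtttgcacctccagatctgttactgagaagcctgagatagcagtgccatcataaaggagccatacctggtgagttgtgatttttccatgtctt
The letters searched on both strands were GAGGAA for PU.1, the lineage factor of macrophages, TTCNNNGAA for the STAT site GAS, and the consensus letters of the core of the interferon-stimulated response element and of NF-kB sites. The Ccrl2 window held 3 NF-kB matches, starting 68, 56 and 55 bases before the start, of which the last 2 overlap, and none of the other motifs. The windows at the other annotated starts of Ccrl2 held none of the 4 motifs, and neither did those of Cxcr4 and Ccr2. Among the genes that missed the threshold, the Ccr1 and Ccr3 windows each held 1 PU.1 and 1 NF-kB match (overlapping in Ccr3) and the Cx3cr1 window 1 NF-kB match. Of 32851 mouse promoter windows of the same length, 28.3% held the PU.1 letters, 8.3% the GAS, 3.44% the interferon element and 50.8% the NF-kB letters, so that an NF-kB match is common. These matches are descriptions of the letters only. AUUUA elements, which can shorten the life of an mRNA, were counted as ATTTA in the annotated 3′ untranslated regions. Ccr2 held 8 in 2701 nt and Ccrl2 2 in 860 nt, or 2.96 and 2.33 per kb, above the median of 1.27 per kb over 11538 genes. Cxcr4, which rose, held 1 in 644 nt (1.55 per kb) and was also above that median. The density was lower in 82.1% of genes for Ccr2, 73.1% for Ccrl2 and 56.9% for Cxcr4. Ccr1 (0.769 per kb), Ccr3 (1.01 per kb) and Cx3cr1 (0.387 per kb) lay below the median. The part of these elements in the changes was not tested.

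Ccrl2, the atypical chemerin-binding receptor, changed most of the 6 genes. It was measured at 35.0, 37.5, 41.3 and 35.2 CPM in control replicates 2, 5, 6 and 7 and at 11.9, 12.1, 16.4 and 12.8 CPM in MAARS gapmeR replicates 9, 11, 13 and 15. The groups lay far apart, and even the highest MAARS gapmeR library, replicate 13, stood well below the lowest control library. The mean fell from 37.3 ± 2.91 to 13.3 ± 2.11 CPM (SD, n = 4 each), to 35.7% of the control level. The log2 fold change was -1.49 (standard error 0.101, 95% interval -1.71 to -1.26, edgeR adjusted p = 5.03e-06). Among all genes tested, 2.25% had an absolute log2 fold change as large. The raw counts behind these values were 684 to 763 in control and 252 to 357 in MAARS gapmeR libraries, although the latter were deeper. Leaving out each library in turn kept the log2 fold change between -1.60 and -1.44. In such bulk samples, fewer cells that express a gene and less RNA per cell cannot be told apart, and this holds for each gene below.

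The genes around Ccrl2 in the chemerin pathway were sparse. Rarres2, which encodes chemerin, had 0 to 4 counts per library and was not tested, and Gpr1, another chemerin receptor, was at 0 in every library. Cmklr1, the signalling chemerin receptor, was measured at 38.9, 48.1, 63.3 and 61.0 CPM in control replicates 2, 5, 6 and 7 and at 45.3, 35.8, 49.5 and 39.3 CPM in MAARS gapmeR replicates 9, 11, 13 and 15. Its groups overlapped, and its log2 fold change of -0.32 (standard error 0.146) missed the threshold (edgeR adjusted p = 0.0975). It passed without the filter on low counts (-0.32, edgeR adjusted p = 0.0148) and without control replicate 2 (-0.43, edgeR adjusted p = 0.0126).

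Cxcr4, the receptor of Cxcl12, was the member that rose. Its level was 87.0, 86.6, 87.2 and 90.0 CPM in control replicates 2, 5, 6 and 7 and 127, 99.9, 128 and 138 CPM in MAARS gapmeR replicates 9, 11, 13 and 15. The control libraries were nearly alike, whereas the MAARS gapmeR libraries were spread over a wider range, all above the controls, with replicate 11 closest to them. The mean went from 87.7 ± 1.53 to 123 ± 16.3 CPM (SD, n = 4 each), a fold change of 1.4. On the log2 scale the change was 0.49 (standard error 0.082, 95% interval 0.31 to 0.67, edgeR adjusted p = 0.000608), and 21.6% of all genes tested had an absolute change as large. It stayed between 0.43 and 0.58 with each library left out in turn. Neutrophils also carry Cxcr4. None of the 8 tested neutrophil markers passed the threshold. Ly6g had 0 to 8 counts per library, but other markers of the list were well measured. S100a9 was at 55.8 ± 26.2 CPM in control and 43.4 ± 11.2 CPM in MAARS gapmeR libraries. Ngp was at 54.9 ± 25.9 and 40.4 ± 7.06 CPM (SD, n = 4 each). The part of neutrophils in the rise of Cxcr4 was not tested.

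Ccr2, the receptor of the monocyte chemoattractant Ccl2, fell. It was measured at 10.6, 11.2, 15.4 and 14.8 CPM in control replicates 2, 5, 6 and 7 and at 9.32, 9.39, 9.7 and 8.58 CPM in MAARS gapmeR replicates 9, 11, 13 and 15. The MAARS gapmeR libraries were close together and all below the controls, among which replicates 6 and 7 stood above replicates 2 and 5. The mean went from 13 ± 2.46 to 9.25 ± 0.473 CPM (SD, n = 4 each), 71.1% of the control level. The log2 fold change was -0.49 (standard error 0.126, 95% interval -0.77 to -0.22, edgeR adjusted p = 0.00801), and it lay between -0.57 and -0.41 with each library left out in turn. Of the 6709 windows of 100 nt in Ccr2 transcripts, 53 (0.79%) also occur in a transcript of another gene, so that a small part of its reads may have been counted elsewhere. No such window was found in the other members.

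Ccr2 marks inflammatory monocytes, so the monocyte markers were set beside it. Of the 6 markers tested, 3 fell, among them Ly6c2 (7.88 ± 4.6 to 2.47 ± 0.823 CPM) and Plac8 (4.12 ± 2.36 to 0.867 ± 0.174 CPM, SD, n = 4 each), F13a1 rose from 3.74 ± 0.74 to 15.8 ± 5.88 CPM, and Hp and Itga4 missed the threshold. Control replicates 6 and 7 were above replicates 2 and 5 for Ly6c2 and Plac8, as they were for Ccr2. The summed list lay at 166 to 194 CPM in control and 184 to 265 CPM in MAARS gapmeR libraries, most of it from Itga4, and no marker was at 0. The part of monocytes in the fall of Ccr2 was not tested.

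Ccr1, a receptor of Ccl3, Ccl5, Ccl6 and Ccl9, was measured at 137, 120, 150 and 164 CPM in control replicates 2, 5, 6 and 7 and at 127, 121, 132 and 124 CPM in MAARS gapmeR replicates 9, 11, 13 and 15. The groups overlapped, because control replicate 5 lay just below every MAARS gapmeR library while replicates 2, 6 and 7 lay above all of them. The log2 fold change was -0.18 (standard error 0.081, 95% interval -0.36 to -0.002), which did not pass the threshold (edgeR adjusted p = 0.0915). The call depended on 1 library and on the setting. Without control replicate 5 the log2 fold change was -0.26 (edgeR adjusted p = 0.00857). With all libraries it passed without the filter on low counts (-0.18, edgeR adjusted p = 0.0429) and with 1 surrogate variable (-0.16, edgeR adjusted p = 0.0274). With 2350 to 3339 counts per library, counting error was small, and the spread between the control libraries (143 ± 18.9 CPM, SD, n = 4, against 126 ± 4.73 CPM) set the precision.

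Ccr3, the eotaxin receptor known best from eosinophils, had 97 to 195 counts per library. Its level was 4.97, 6.11, 6.38 and 6.97 CPM in control replicates 2, 5, 6 and 7 and 6.72, 7.32, 8.96 and 4.55 CPM in MAARS gapmeR replicates 9, 11, 13 and 15. The MAARS gapmeR group held both the highest and the lowest library. The log2 fold change was 0.17 (standard error 0.186, 95% interval -0.24 to 0.58, edgeR adjusted p = 0.479), and the interval leaves room for a change in either direction. It moved from 0.02 without MAARS gapmeR replicate 13 to 0.33 without MAARS gapmeR replicate 15, past no threshold in either. Eosinophil markers were near the detection limit, with a summed level of 2.1 to 2.46 CPM in control and 1.23 to 2.11 CPM in MAARS gapmeR libraries, neither of the 2 tested past the threshold, and 0 to 3 counts per library for Epx. The basophil and mast cell list summed to 0.408 to 0.922 and 0.358 to 0.597 CPM, with Fcer1a at 0.

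Cx3cr1, the fractalkine receptor, was the least abundant member, with 35 to 86 counts per library. It was measured at 2.61, 1.83, 2.54 and 3.04 CPM in control replicates 2, 5, 6 and 7 and at 1.66, 3.42, 3.12 and 1.95 CPM in MAARS gapmeR replicates 9, 11, 13 and 15. The groups overlapped throughout, with MAARS gapmeR replicates 9 and 15 low and 11 and 13 high. The log2 fold change was 0.02 (standard error 0.252, 95% interval -0.53 to 0.58, edgeR adjusted p = 0.95), and its sign turned with the library left out, from -0.16 without MAARS gapmeR replicate 11 to 0.17 without MAARS gapmeR replicate 9. These libraries leave room for a change of any size inside that interval, in either direction. The antisense gene Gm33858 overlaps 1.73% of the exonic bases of Cx3cr1 and had 0 to 2 counts per library.

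Levels of different genes were compared per length, as CPM per kb of exon. In control libraries Ccr1 (50.3 ± 6.66) and Cxcr4 (48.5 ± 0.848 CPM per kb, SD, n = 4) were the most abundant members and did not differ beyond their spread, with Ccr1 ahead in 3 of 4 libraries. Ccrl2 followed at 14.3 ± 1.12, then Ccr2 at 1.93 ± 0.363 and Ccr3 at 1.87 ± 0.257, whose ranges overlapped, and Cx3cr1 at 0.557 ± 0.111 CPM per kb. After MAARS knockdown Cxcr4 led in each of the 4 libraries, at 68.2 ± 9.0 (55.3 to 76.2) against 44.4 ± 1.67 (42.6 to 46.4) CPM per kb for Ccr1. Ccrl2 stayed in the third place at 5.12 ± 0.811, and Ccr3 (2.1 ± 0.557) and Ccr2 (1.37 ± 0.0699 CPM per kb) changed places with overlapping ranges. Scaled by coding length instead, Ccr1 was at 134 ± 17.7 and Cxcr4 at 81.4 ± 1.42 CPM per kb in control, and at 118 ± 4.44 and 114 ± 15.1 CPM per kb in MAARS gapmeR libraries (SD, n = 4 each), so the order of these 2 genes rests on the choice of length, whereas the change in each does not.

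The summed level of the 6 genes was 118 ± 7.96 CPM per kb in control and 122 ± 10.2 CPM per kb in MAARS gapmeR libraries (SD, n = 4 each), with overlapping ranges of 109 to 126 and 107 to 129. What moved was the make-up of this sum, shown in the plot of stacked levels. Cxcr4 made up 41.4 ± 2.28% of it in control (39.4 to 44.1%) and 55.8 ± 3.28% in MAARS gapmeR libraries (51.7 to 59.6%). The share of Ccrl2 went from 12.2 ± 1.18% to 4.21 ± 0.539%, and that of Ccr1 from 42.7 ± 2.87% to 36.6 ± 2.37% with overlapping ranges. Ccr2, Ccr3 and Cx3cr1 hardly show on this scale, at mean shares of 1.13 to 1.74% for Ccr2 and Ccr3 and of 0.471% for Cx3cr1 in both groups. The sum and the shares rest on exon length and were not computed by coding length. By coding length the mean of Ccr1 was above that of Cxcr4 in both groups.

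**Figure D3:**
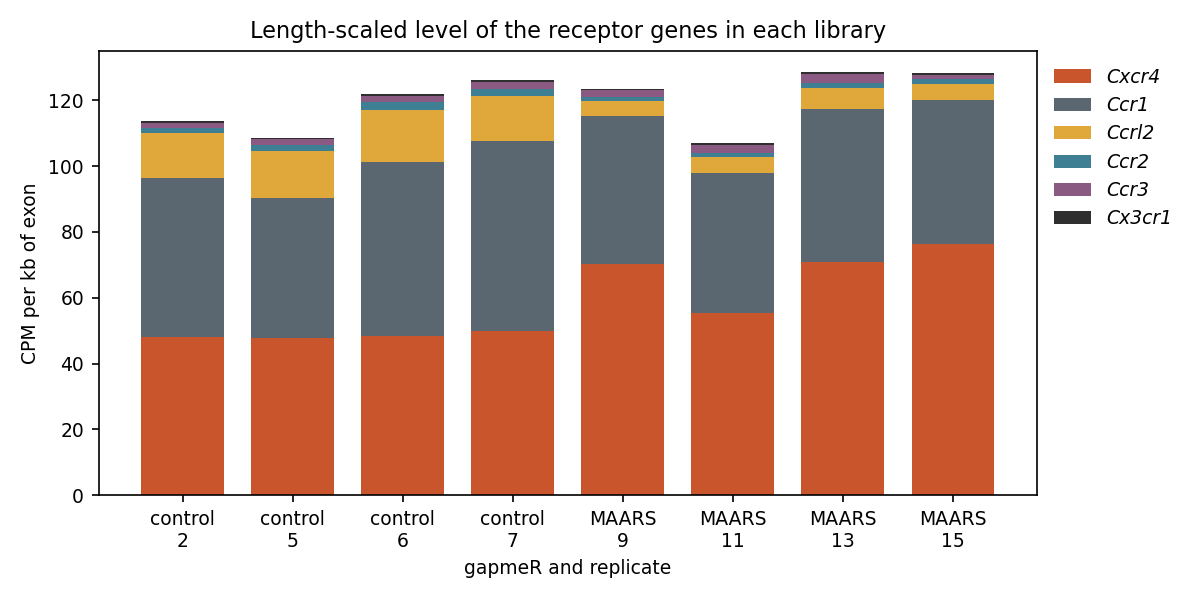
CPM per kb of exon (vertical axis, from 0) of the 6 receptor genes stacked for each library, with 1 bar per library named by gapmeR and replicate number. The bars reach 109 to 126 CPM per kb with control gapmeR and 107 to 129 CPM per kb with MAARS gapmeR, while the Cxcr4 part is taller and the Ccrl2 part shorter in each of the MAARS gapmeR libraries.

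Ratios of counts within a library do not depend on the scaling between libraries. The ratio of Ccrl2 to Cxcr4 counts was 0.391 to 0.473 in control libraries and 0.0931 to 0.128 in MAARS gapmeR libraries, a difference in mean log2 ratio of -1.98. The ratio of Ccr1 to Cxcr4 counts went from 1.38 to 1.82 down to 0.897 to 1.21, and that of Ccr2 to Cxcr4 from 0.122 to 0.177 down to 0.0623 to 0.0939. The groups overlapped for the ratios of Ccr3 to Cxcr4 (0.0571 to 0.0775 and 0.033 to 0.0732) and of Cx3cr1 to Cxcr4 (0.0212 to 0.0338 and 0.013 to 0.0342). Of the 15 pairs of members, 7 had ratios that overlapped between the groups. The ratio of Ccr1 to Ccr2 was 9.72 to 12.8 in control and 12.8 to 14.4 in MAARS gapmeR libraries, where the ranges all but touch. Within the chromosome 9 cluster, the ratio of Ccr2 to Ccr3 overlapped between the groups (1.82 to 2.42 and 1.08 to 1.89).

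Most ligands of these receptors fell. Of 14 ligand genes listed, 12 were tested, of which 8 fell, 1 rose and 3 missed the threshold, where 24.0% of all genes tested fell and 21.3% rose. The median log2 fold change was -0.68 against 0.01 over all genes tested. Each of the 5 tested genes listed for Ccr1 and each of the 4 listed for Ccr2 fell (Ccl7 counts for both). Ccl5 was measured at 34.8, 29.0, 84.4 and 105 CPM in control replicates 2, 5, 6 and 7 and at 1.66, 4.26, 12 and 4.42 CPM in MAARS gapmeR replicates 9, 11, 13 and 15. All MAARS gapmeR libraries lay below the controls, among which replicates 6 and 7 were again the higher ones, and the log2 fold change was -3.50 (standard error 0.525, edgeR adjusted p = 0.000292). The monocyte chemoattractant Ccl2, the main ligand of Ccr2, was measured at 86.4, 46.2, 63.9 and 79.3 CPM in control replicates 2, 5, 6 and 7 and at 13.7, 20.9, 19.7 and 19.2 CPM in MAARS gapmeR replicates 9, 11, 13 and 15. Its log2 fold change was -1.90 (standard error 0.184, edgeR adjusted p = 1.49e-05), 26.7% of the control level being left, compared with 71.1% for its receptor. Ccl12 (17.4 ± 5.26 to 2.1 ± 0.548 CPM), Ccl7 (96.4 ± 36.4 to 12.1 ± 2.86 CPM) and Ccl8 (3.27 ± 1.7 to 0.787 ± 0.264 CPM, SD, n = 4 each), which are listed for Ccr2 as well, fell with log2 fold changes of -3.04, -2.98 and -2.04.

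The ligands listed for Ccr1 alone changed less. Ccl3, Ccl9 and Ccl6 fell with log2 fold changes of -0.70, -0.66 and -0.41, from 54.3 ± 1.98 to 33.3 ± 4.23, from 286 ± 34.4 to 181 ± 11.4 and from 282 ± 38.4 to 213 ± 11.8 CPM (SD, n = 4 each). Ccl24, an eotaxin that acts through Ccr3, rose from 0.31 ± 0.117 to 1.11 ± 0.38 CPM, a log2 fold change of 1.82 (standard error 0.375, edgeR adjusted p = 0.00226) at a level near the detection limit, and Ccl11, another eotaxin, was at 0 in every library. Ccl24 had 3 to 8 counts per control library and passed the filter on low counts through the MAARS gapmeR libraries only, which favours a rise. Ccl5, which fell, was listed for Ccr3 as well as for Ccr1. The opposite directions of the tested Ccr3 ligands thus rest on Ccl24. Cx3cl1, which encodes fractalkine, was measured at 1.47 ± 0.212 and 1.83 ± 0.584 CPM (SD, n = 4 each), and its log2 fold change of 0.31 missed the threshold (edgeR adjusted p = 0.322).

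Neither Cxcr4 ligand passed the threshold in the edgeR comparison of all libraries without a covariate, but both calls depended on the setting. Cxcl12 was measured at 8.6, 5.45, 6.98 and 14.8 CPM in control replicates 2, 5, 6 and 7 and at 10.7, 10.8, 14.6 and 10.4 CPM in MAARS gapmeR replicates 9, 11, 13 and 15. Control replicate 7 was above all MAARS gapmeR libraries and the other controls were below them. The log2 fold change was 0.37 (standard error 0.25, edgeR adjusted p = 0.249), and it ranged from 0.19 without control replicate 5 (edgeR adjusted p = 0.545) to 0.73 without control replicate 7 (edgeR adjusted p = 0.00678). With 1 surrogate variable it was 0.46 (edgeR adjusted p = 0.0385). The stromal marker Col1a1 was also highest in control replicate 7 (484 CPM, the other controls 214 to 355 CPM) and in MAARS gapmeR replicate 13 (581 CPM, the others 345 to 448 CPM), the libraries highest for Cxcl12 in their groups. None of the 5 stromal markers tested passed the threshold, and their part in Cxcl12 was not tested. For Mif, a cytokine that also binds Cxcr4, the log2 fold change was -0.16 (standard error 0.064, edgeR adjusted p = 0.0554) at 102 ± 4.17 and 90.6 ± 8.07 CPM (SD, n = 4 each), and it passed the threshold without MAARS gapmeR replicate 11 (edgeR adjusted p = 0.0398), with a robust prior (0.0467) or with 1 surrogate variable (0.0491). The plot of ligand fold changes places these genes between the ligands that fell and Ccl24.

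**Figure D4:**
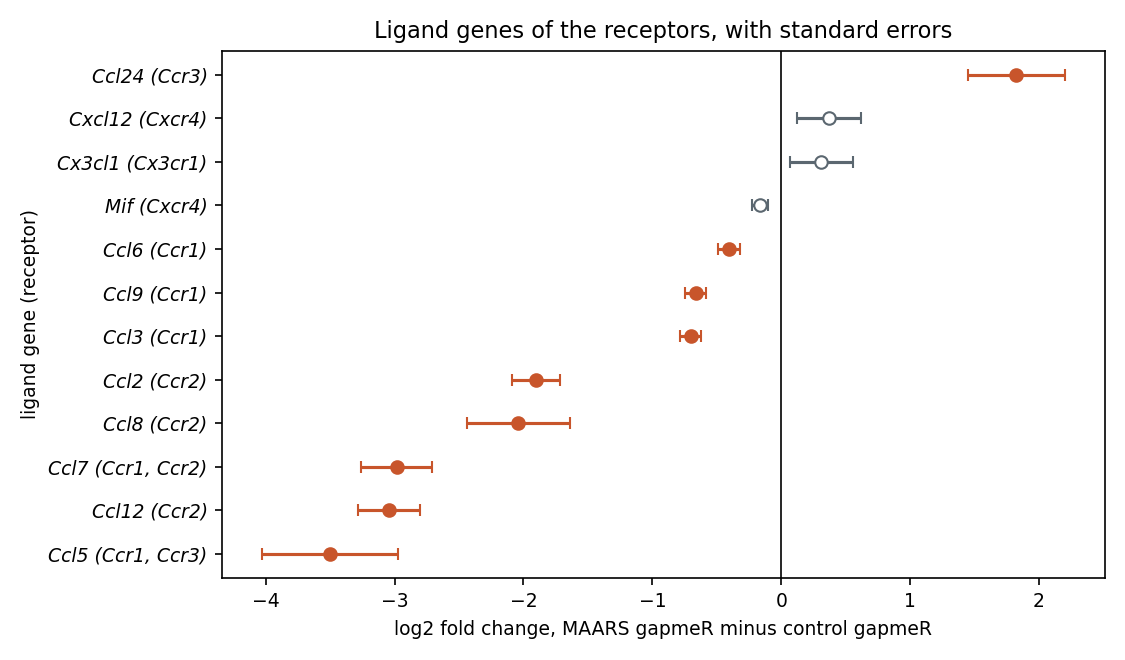
Log2 fold change of the 12 ligand genes tested, MAARS gapmeR minus control gapmeR, each with the receptor it was listed for and ± 1 standard error as the bar. Filled points mark an adjusted p under 0.05, which 8 genes passed below 0, from Ccl6 at -0.41 to Ccl5 at -3.50, and Ccl24 above 0 at 1.82.

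Most other chemokine receptors were at or near 0 in these cells. Of 17 listed genes, 12 had 10 or fewer counts in every library, Ccr6 and Ccr8 were at 0 throughout, and 2 were tested. Cxcr3, the receptor of the interferon-induced chemokines Cxcl9 and Cxcl10, was measured at 11.3, 10.9, 10.5 and 9.92 CPM in control replicates 2, 5, 6 and 7 and at 8.8, 6.37, 7.21 and 7.93 CPM in MAARS gapmeR replicates 9, 11, 13 and 15. All MAARS gapmeR libraries were below all controls, and the log2 fold change was -0.50 (standard error 0.109, edgeR adjusted p = 0.00339). Ccr1l1, a gene related to Ccr1, was measured at 1.66 ± 0.713 and 1.17 ± 0.275 CPM (SD, n = 4 each) and missed the threshold (log2 fold change -0.50, edgeR adjusted p = 0.216). Xcr1, a receptor best known from dendritic cells, did not pass the filter on low counts (0.682 ± 0.194 and 0.201 ± 0.101 CPM, SD, n = 4 each) and was named after its values were seen. Without that filter it was the second gene of the list to be lower (log2 fold change -1.75, edgeR adjusted p = 0.0052).

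Of 14 listed receptors for chemoattractants other than chemokines, 13 were tested, of which 7 fell, 1 rose and 5 missed the threshold, against 24.0% lower and 21.3% higher among all genes tested. The median log2 fold change was -0.28 against 0.01 over all genes. The formyl peptide receptors Fpr1 and Fpr2, which sense bacterial peptides, fell with log2 fold changes of -2.54 and -2.37, Fpr1 from 1.12 ± 0.5 to 0.189 ± 0.123 CPM and Fpr2 from 5.3 ± 2.92 to 1.02 ± 0.32 CPM (SD, n = 4 each). Fpr1 was near the detection limit, with 2 to 8 counts per MAARS gapmeR library. It passed the filter on low counts through the control libraries only, which favours a fall. Fpr2 was uneven among the controls, at 2.56, 3.01, 8.11 and 7.51 CPM in control replicates 2, 5, 6 and 7. The leukotriene B4 receptor gene Ltb4r1 fell by 0.93 on the log2 scale, from 1.11 ± 0.28 to 0.582 ± 0.104 CPM (SD, n = 4 each, edgeR adjusted p = 0.0159), and without control replicate 7 it just missed the threshold (edgeR adjusted p = 0.0503). S1pr1, the sphingosine 1-phosphate receptor that guides leukocytes out of tissues, rose, from 130 ± 10.3 to 205 ± 9.28 CPM (SD, n = 4 each), and its log2 fold change was 0.66 (standard error 0.06, edgeR adjusted p = 1.11e-05).

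The machinery downstream of the receptors showed no common direction. Of 37 signalling and desensitisation genes listed and tested, 9 rose, 15 fell (12 to 14 with each library left out in turn) and 13 missed the threshold. Among all genes tested 45.4% were called, 21.3% higher and 24.0% lower. The median log2 fold change of the list was -0.01. Among the genes with the largest called changes were the Src-family kinase Fgr (8.97 ± 2.29 to 2.6 ± 0.303 CPM, log2 fold change -1.79), Rgs1, a regulator that ends Gi signalling (123 ± 24.4 to 48.6 ± 8.14 CPM, -1.34), and Cd74, the Mif receptor that pairs with Cxcr4 (118 ± 31.1 to 55.3 ± 3.8 CPM, -1.09, SD, n = 4 each). The groups of Cd74 did not overlap, but control replicates 6 and 7 (145 and 143 CPM) were again above replicates 2 and 5 (82.4 and 101 CPM).

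The genes named next lie outside the rule for named genes and were chosen after their values were seen, to give the small counts by role their names. Of 7 G protein genes, Gnai3 rose (log2 fold change 0.19), and of 6 receptor kinases and arrestins, which desensitise receptors, Grk2, Grk6 and Arrb1 rose (0.12, 0.33 and 0.21) while Arrb2 fell (-0.18). Of 7 RGS proteins, Rgs10 rose (0.38) and Rgs1, Rgs2, Rgs14 and Rgs18 fell (-1.34, -0.34, -0.33 and -0.50). In phosphoinositide signalling, Pik3cg and Plcb3 rose (0.64 and 0.53) and Pik3r5 and Plcb2 fell (-0.29 and -0.40). Among the genes of Rac activation, Dock2 and Elmo1 rose (0.31 and 0.33), whereas Vav1, Rac2 and Prex1 fell (-0.57, -0.45 and -0.18). Ptk2b, a kinase like Fgr, fell (-0.31), as did Nup85 (-0.27), whose product binds Ccr2.

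For each receptor gene, the genes whose log2 CPM, centred on the control mean, ran closest to it over the 8 libraries were identified by the root mean square difference. Epsti1 and Slfn2 followed Ccrl2 most closely (0.0957 and 0.099 log2 units), with log2 fold changes of -1.45 and -1.41 of their own, and Phf1 and Rab38 followed Cxcr4 (0.0767 and 0.0828, fold changes 0.48 each on the log2 scale). The closest genes were Rab39 and Gm38158 for Ccr2 (0.0529 and 0.0648) and Lmln and Cemip2 for Ccr1 (0.0419 and 0.0511). They were Otub2 and Trip6 for Ccr3 (0.122 and 0.149) and Ehd3 and Gm14321 for Cx3cr1 (0.143 and 0.164), so that the match was loosest for the 2 genes with the fewest counts. This likeness is a description over 8 libraries that share their groups. Centred on the mean of all libraries instead, 1 of the 2 genes remained closest for Ccr1, Ccr3 and Cxcr4, and both for the other members.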

How the data were processed

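RNA-Seq of mouse BMDMs transfected with control gapmeR (4 libraries) or MAARS gapmeR (4 libraries) was used. According to the submitters' processing notes and the methods, the authors trimmed reads with Trimmomatic 0.36, aligned them with STAR 2.5.2b to GRCm38 (mm10) and counted them per gene with featureCounts of Subread 1.5.2. What they deposited are raw counts of 49315 genes without normalization. Whether the counting used strand and how multi-mapping reads were treated was not given in the sources used here.

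The filter was filterByExpr of edgeR with a minimum count of 10 and a minimum total of 15. It passed 13051 genes, and the groups were compared with edgeR 4.0.16 (TMM factors, glmQLFit and glmQLFTest, R 4.3.3) with p-values adjusted by the Benjamini-Hochberg method over all of them. Each standard error is the size of the log2 fold change over the square root of F. The biological coefficient of variation was 8.51%. Single values were compared by two-sided exact permutation tests. Depth was 19287279 to 24541205 counts per library. Replicates of 1 group differed with a chi-square of 4.02 to 14.1 per gene, and no library was counted as a repeat of another. The lowest value was between control replicates 6 and 7 and the highest between control replicates 2 and 6, over all genes counted. Gene names, positions and lengths came from GENCODE M21, which held 99.47% of the genes, and promoter sequences from RefSeq. Shared 100-nt windows were counted between GENCODE transcripts of different genes.

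Samples were grouped by their labels. The receptor genes, the gene lists (other chemokine receptors, other chemoattractant receptors, ligands, signalling genes and the markers of macrophages, monocytes, neutrophils, eosinophils, basophils and mast cells, dendritic cells, T cells, B cells and stromal cells) and the tests were chosen with earlier results of these data known. Named genes were the receptor genes, MAARS, each ligand tested, up to 4 genes with the largest called change of each other list (markers aside), and the 2 genes with the profile closest to each receptor gene. Some genes of the lists are not reported here. Genes named outside this rule are marked as such in the text, and marker genes are named for their lists. Alternatives were RLE and upper-quartile factors, DESeq2 1.42.0, limma-voom (limma 3.58.1), no filter, a mean count of at least 10, a robust prior, 1 surrogate variable (sva 3.50.0), each library left out in turn, coding in place of exon length, and another centring of the profiles. The procedure was tested on simulated data.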

Additional observations from a re-analysis of the deposited data

Results flagged for a closer look

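In 80 groups of 4 libraries, 1 library stood farther from the rest than Dixon's 95% limit in 5 cases, and chance gives about 1 in 20. Cxcr4 in control gapmeR replicate 7 was at 90.0 CPM, with the other controls at 86.6 to 87.2 CPM, a small step within a tight group. Ccl12 in MAARS gapmeR replicate 9 was at 1.28 CPM (the others 2.34 to 2.39 CPM), and Cxcl12 in MAARS gapmeR replicate 13 was at 14.6 CPM (the others 10.4 to 10.8 CPM). Among the genes with profiles closest to the receptor genes, Epsti1 in MAARS gapmeR replicate 13 was at 61.3 CPM (the others 45.6 to 47.2 CPM) and Phf1 in control gapmeR replicate 6 at 14.2 CPM (the others 15.8 to 16.0 CPM).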

How the results depend on the processing

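Of 818 values under alternatives, 767 kept their direction and their side of the threshold (or, for counts and ranks, moved by less than the margin), 8 lost the threshold, 13 passed it, 19 moved and 11 turned their sign. Ccrl2, Ccr2, Cxcr4 and MAARS kept their calls under every alternative run. Ccr1 passed the threshold without the filter on low counts (-0.18, adjusted p = 0.0429), with 1 surrogate variable (-0.16, adjusted p = 0.0274) and without control replicate 5, and its log2 fold change lay between -0.26 and -0.11 over the left-out libraries (edgeR). Cx3cr1 was at -0.013 with limma-voom and between -0.16 and 0.17 over the left-out libraries, negative without control replicate 5 (-0.11), MAARS gapmeR replicate 11 (-0.16) or 13 (-0.09). Over the left-out libraries Ehd3 lay between -0.077 and 0.221 (-0.004 with limma-voom), Trip6 between -0.026 and 0.269 and Gm14321 between -0.224 and 0.097. The cause of these changes was not tested, and none of these genes passed the threshold in any of them except Ccr1.

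Counts of called genes moved in the small lists. The other chemokine receptors had 2 lower genes without the filter, by Xcr1, and 1 to 2 over the left-out libraries. The chemoattractant receptors had 2 higher genes with upper-quartile factors, DESeq2 or 1 surrogate variable and 1 to 2 over the left-out libraries, by C5ar1, a complement receptor named after its values were seen. The ligands had 2 higher genes with 1 surrogate variable, by Cxcl12, and 1 to 2 over the left-out libraries. With another centring, 1 of the 2 closest genes remained for Ccr1, Ccr3 and Cxcr4. By coding length in the MAARS gapmeR group, Ccr1 ranked 1, Cxcr4 2, Ccr2 4 and Ccr3 5. Upper-quartile factors raised the share of higher genes among those called from 47.0% to 60.4% and the median log2 fold change of all genes from 0.01 to 0.07.

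No paired analysis was possible because the groups share no replicate numbers. Cx3cr1 (35 to 86 counts per library) and Ccr3 (97 to 195) had the fewest counts of the receptor genes, and their spread between libraries (SD 0.866 on 2.54 and 1.82 on 6.89 CPM with MAARS gapmeR) bounds what can be seen of them.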
